A study of Drosophila melanogaster with 4 samples.

Results

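The C/D box small nucleolar RNAs (snoRNAs) named for the nucleotide they help to methylate were described in ribosome footprint libraries of Drosophila melanogaster ovaries. They were taken as the genes whose Release 6 symbol starts with snoRNA:Me, and 78 such genes stood in the gene table. Of these, 73 had a counted transcript with the same start and end, out of 17448 genes or joint loci in all, and 60 of the 73 had enough reads to be tested. The study compared 2 libraries from wildtype ovaries with 2 from ovaries mutant for RpS5b, a gene for a ribosomal protein of the small subunit, and no label names the allele or any further transgene. Per the labels, whole ovaries were dissected 48 hours after the adult females emerged, and the controls had been cleared of egg chambers at stages 10 through 14. Ribosome footprinting sequences short RNA pieces left after nuclease digestion, here pieces of 28 to 34 nt cut from a gel. Ovaries hold germline and somatic follicle cells, so fewer cells of a type and less RNA per cell cannot be told apart.

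C/D box snoRNAs carry 2 short sequence boxes, C and D, and bind the methyltransferase fibrillarin together with Nop56, Nop58 and the 15.5K protein. A stretch upstream of the D box pairs with ribosomal RNA or a spliceosomal small nuclear RNA, and fibrillarin then methylates the ribose of 1 paired nucleotide. In flies most of them are cut out of introns of host genes after splicing and trimmed by exonucleases. They are not translated, so their counts in a footprint library are counts of RNA pieces of the selected size and not of ribosomes. Each symbol gives the target RNA, the base and its position, and a last letter marks copies with the same target position, so Me28S-A992 names an A of 28S rRNA.

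Library totals per the file headers were 3122299 and 6170623 reads in wildtype and 13942184 and 8714570 in mutant libraries. RpS5b itself had 287 and 342 reads counted in the wildtype libraries, against 10 and 9 in the mutant ones. The summed level of 5 follicle cell markers was 575 and 399 CPM (counts scaled to edgeR's effective library size) in wildtype and 2259 and 2012 in mutant libraries, and 5 of 5 passed the test as higher. Yp1, a yolk protein gene, made up most of that sum with 425, 249.7, 1954 and 1719 CPM, and the other 4 summed to 149.9, 149, 305 and 293 CPM, in the order wildtype 1, wildtype 2, mutant 1, mutant 2. Of 6 germline markers 1 passed as higher and 1 as lower, and their sums ran from 313 to 391 CPM. Of 4 muscle markers none passed, with sums from 73.5 to 114 CPM, and 3 of 4 gut and 2 of 3 fat body markers were at 0 in every library. The part of this cell mixture in the snoRNA values was not tested.

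The mutant libraries differed from each other among the snoRNAs. In that group, library 2 lay above library 1 in 53 of the 60 members tested (88.3%, against 49.3% of all genes tested), with a median log2 ratio of 0.50 against -0.00 over all genes. The wildtype libraries were less one-sided, with library 2 above library 1 in 35 of the 60 members, but single members differed widely, and the median size of the log2 ratio was 0.48 against 0.24 over all genes. Counts of members called are therefore also given without single libraries, and a call of a member or host that was lost without 1 library is named as such beside its values.

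**Figure D1:**
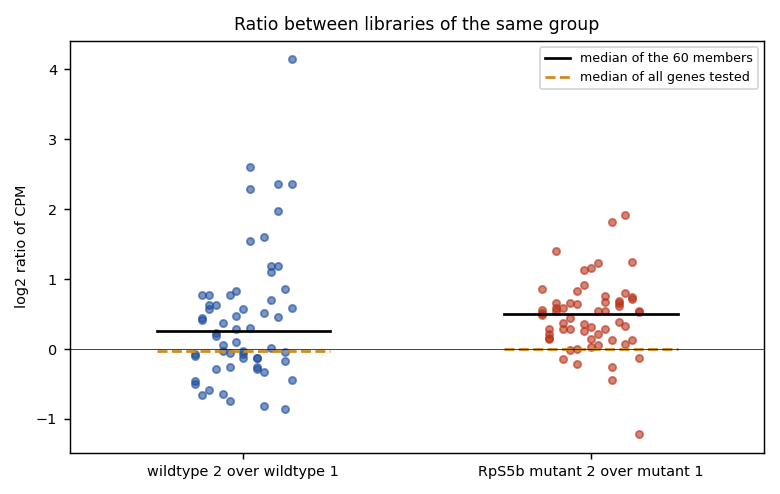
Each point is 1 of the 60 snoRNAs tested and shows the log2 ratio of its CPM between the libraries of 1 group, with the members' median as a solid line and that of all genes tested as a dashed line. Most points of the mutant pair lie above 0, with a median of 0.50, and those of the wildtype pair spread from below 0 to above 4.

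The members were 46 to 116 nt long (median 79 nt). By the target in the symbol, 51 name 28S rRNA, 19 name 18S rRNA, 2 name U6 small nuclear RNA and 1 names 5.8S rRNA, at 50 different positions. Chromosome arm 2R held 32 of them, 3L 19, 2L 9, 3R 9 and X 4. A host gene on the same strand contained 72 of the 73, and 62 lay in an intron of every host transcript. The other 10 overlapped an exon of some host transcripts, so reads of a transcript that keeps the intron would be counted in them too. Me18S-A1806 lay in no host.

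Together the 73 members held 0.644% and 0.542% of the counts over genes in wildtype libraries, and 0.344% and 0.551% in mutant ones. Mutant library 1 was the lowest of the 4, and mutant library 2 lay within the wildtype range. The mean share was 0.593% ± 0.0719 in the wildtype and 0.447% ± 0.146 in the mutant (SD, n = 2 each), a difference that did not exceed the spread between libraries (exact permutation test, two-sided, p = 0.667, where 0.33 is the smallest p that 2 against 2 libraries can give). Without Me28S-A992, the most abundant member, which was left out after its values were seen, the share was 0.504% and 0.454% in wildtype and 0.283% and 0.43% in mutant libraries. The groups then did not overlap, at that smallest p.

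Per kilobase, the tested members ranged from 11.8 to 14300 CPM, with a median of 469. Me28S-A992, an intron product of Uhg5, stood at the top with 18720 and 13650 CPM per kilobase in wildtype and 8801 and 15980 in mutant libraries. It alone held between 16.4% and 21.9% of all counts of the members. The next by the mean over the 4 libraries, Me28S-C3227b, had 9074 and 5431 CPM per kilobase in wildtype and 2278 and 2288 in mutant libraries. It held place 2 among the members in each wildtype library and place 6 in each mutant library, where Me28S-G980, with 3155 and 4613 CPM per kilobase, held place 2. By that mean Me18S-A425, Me18S-A1576 and Me18S-C1831 followed with means over the 4 libraries of 4298, 3984 and 3250 CPM per kilobase, and the ranges of these 3 over the libraries overlapped each other. Those 5 members held 47.0% of the summed mean CPM.

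At the other end, 13 members were below the filter on low counts and were not tested, 11 of them with reads. None of the 11 had more than 8 counts in a library. Me28S-A2486 and Me28S-U3344b had 0 counts in all 4 libraries, and a count of 0 allows up to 3 counts, or 0.227 to 1.02 CPM of the counts over genes depending on the library. Both members for U6 were near this end, with 0, 3, 3 and 1 counts for MeU6-A47 and 1, 9, 24 and 7 for MeU6-C68 in the same order of libraries, which all library values below keep.

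Of the 60 members tested, 4 passed as higher in the mutant and 16 as lower, and 40 did not pass (edgeR's quasi-likelihood test with p adjusted by Benjamini-Hochberg over 7789 genes, threshold 0.05). Over all genes tested, 20.5% passed as higher and 20.9% as lower. The members passed as lower at 26.7% and as higher at 6.67%. The median log2 fold change of the 60 was -0.49 against 0.03 over all genes, with 17 values above 0 and 43 below. Without wildtype library 2 that median was -0.27, and without mutant library 2 it was -0.85. The groups were fully separated in CPM in 27 members with the mutant below and in 9 with the mutant above, 45.0% and 15.0% of the members, where all genes gave 34.3% and 37.6%.

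The number of members passing depended on single libraries. Without mutant library 2 the counts were 2 higher and 33 lower, and without mutant library 1 they were 6 and 15. Without wildtype library 1 they were 1 and 19, and without wildtype library 2 they were 6 and 13. The share of members called lower was 55% without mutant library 2, against 19.4% of all genes in the same fit, and 21.7% without wildtype library 2, against 14.9%. So how far the members' share lay above that of all genes depended on the libraries used. With counts scaled to the sum of all snoRNAs in place of all genes, 1 member was higher and 8 were lower. Calls over all genes fell too in that setting, to 598 higher and 525 lower from 1597 and 1626. The test was also run under further settings, and 1 of the 4 higher and 5 of the 16 lower members kept their call under each of them: Me28S-G2703a was higher, and Me28S-U2134b, Me28S-A2589a, Me28S-C3227b, Me18S-A1061 and Me18S-U1356b were lower. None of the 20 changed sign in any setting.

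**Figure D2:**
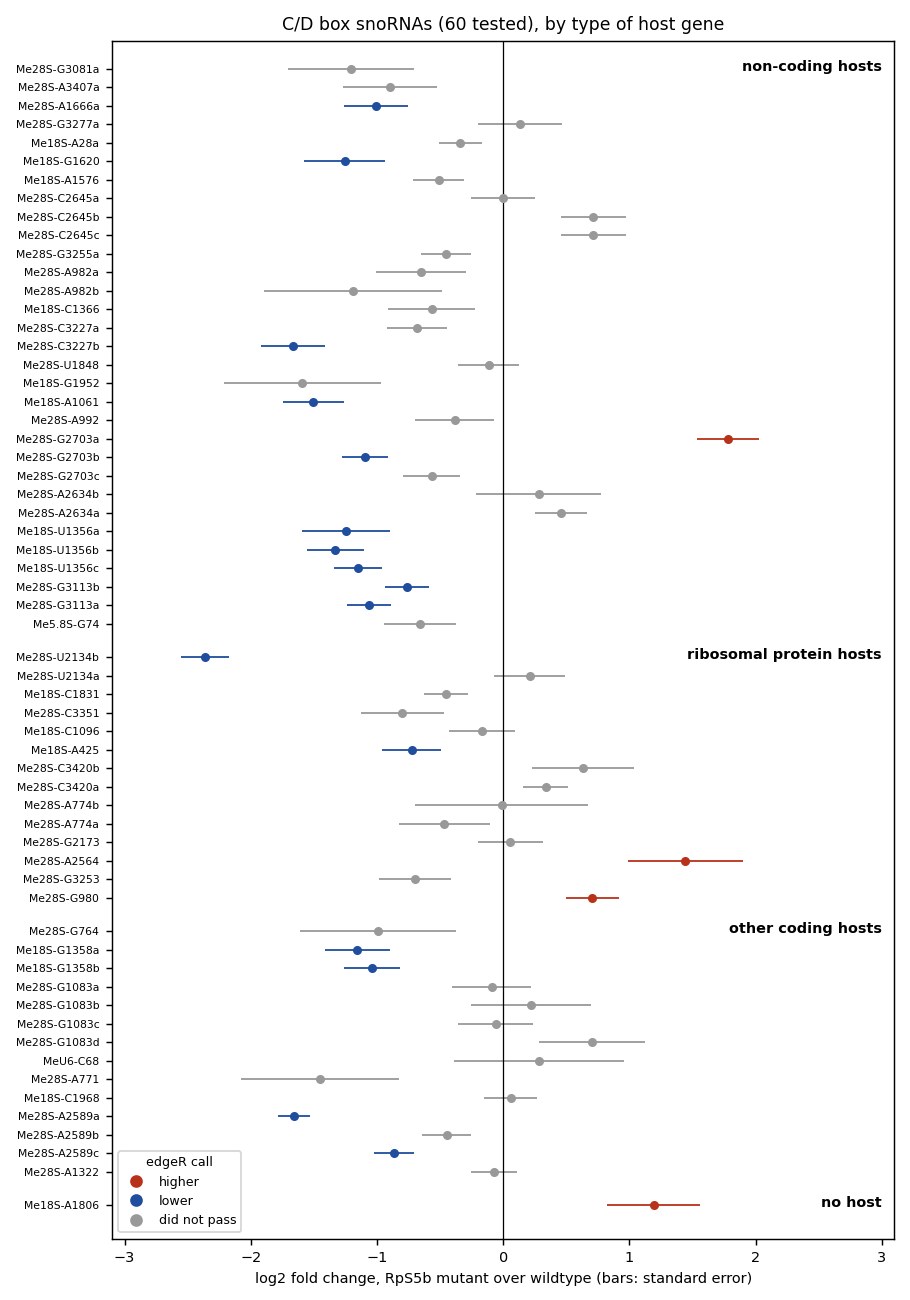
Log2 fold change of the mutant over the wildtype for each of the 60 snoRNAs tested, with its standard error as a bar, by type of host gene and then by host, and coloured by the edgeR call. Most values for non-coding hosts lie below 0, with Me28S-G2703a at 1.78 as the exception that passed, while those for ribosomal protein hosts lie on both sides of 0.

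Among the guides for 18S rRNA, the RNA of the small ribosomal subunit, 16 of 19 were tested, and 8 passed as lower (50%, against 20.9% of all genes) and 1 as higher, with a median log2 fold change of -0.88. With 1 library left out that median ran from -1.09 without mutant library 2 to -0.56 without wildtype library 2. Among the guides for 28S rRNA, the main RNA of the large subunit, 42 of 51 were tested, with a median of -0.42. Of these, 8 passed as lower (19%, against 20.9% of all genes) and 3 as higher (7.14%, against 20.5%). These shares depended on the fit. With the replicate number as a block, 75% of the 18S and 38.1% of the 28S guides passed as lower, against 24.4% of all genes. Without mutant library 2 the median of the 28S guides was -0.63, against 0.02 over all genes. The difference between these targets was not tested, since copies and host neighbours are not independent. The single guide for 5.8S rRNA, Me5.8S-G74, had 11.01, 9.78, 5.06 and 8.27 CPM and did not pass (log2 fold change -0.66, SE 0.28, edgeR adjusted p = 0.101). MeU6-C68 had 0.324, 1.66, 1.87 and 0.804 CPM, overlapping between the groups, and did not pass either (0.28, SE 0.67, edgeR adjusted p = 0.766).

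The 3 copies of the 18S guide Me18S-U1356 lie in introns of Uhg8, a non-coding host gene, on chromosome 3L of BDGP6, plus strand, at 20454007 to 20454085, 20454246 to 20454324 and 20454496 to 20454574. Me18S-U1356b had 149, 110, 41.7 and 61.1 CPM, a log2 change of -1.33 (SE 0.23, edgeR adjusted p = 0.00326). Me18S-U1356a had 88.4, 85.5, 21.9 and 52.0 CPM (-1.24, SE 0.35, edgeR adjusted p = 0.0245), and Me18S-U1356c had 93.3, 87.1, 33.5 and 47.9 CPM (-1.15, SE 0.19, edgeR adjusted p = 0.0027). In all 3 both mutant libraries lay below both wildtype libraries, and mutant library 1 was the lowest. Me18S-U1356a no longer passed without wildtype library 1, or without wildtype library 2.

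Me18S-A1061, from Uhg5, had 236, 167, 57.3 and 84.7 CPM. Both mutant libraries lay below the wildtype, and the log2 fold change was -1.5 (SE 0.24, edgeR adjusted p = 0.00264). Me18S-G1620, from Uhg2, had 49.2, 106, 28.6 and 37.3 CPM (-1.26, SE 0.32, edgeR adjusted p = 0.0179), where the wildtype libraries differed from each other by more than the lower of them differed from the mutant. Without wildtype library 2 it no longer passed. Me18S-A425, the 18S guide with the highest mean level per kilobase, had 453, 446, 211 and 333 CPM, a log2 change of -0.73 (SE 0.23, edgeR adjusted p = 0.0398). It overlaps an exon of some transcripts of its host RpL3, so reads of those would be counted in it too. Nor can its reads be told apart from those of an antisense RNA at the same place if the counting ignored strand. Me18S-A425 lost the call without wildtype library 1, without wildtype library 2 and without mutant library 1.

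The copies Me18S-G1358a and Me18S-G1358b, from introns of the coding gene CG43675 on 3R, were low. Me18S-G1358a had 8.74, 7.20, 3.19 and 3.90 CPM and Me18S-G1358b had 13.3, 10.5, 5.45 and 5.97, and the groups did not overlap in either. Their log2 fold changes were -1.16 (SE 0.26, edgeR adjusted p = 0.01) and -1.04 (SE 0.22, edgeR adjusted p = 0.00814). A further copy of the same name, Me18S-G1358c, had no counted transcript here, as had Me18S-G1506, Me28S-A2629, Me28S-C2789 and Me28S-C993.

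Me18S-A1806, without a host, was the only 18S guide that passed as higher. It lies on 3L at 7639717 to 7639794, plus strand, and had 12, 14, 72 and 77 counts, or 3.89, 2.58, 5.60 and 8.84 CPM. The log2 fold change was 1.19 (SE 0.37, edgeR adjusted p = 0.0356), and the call was lost without wildtype library 1, without wildtype library 2 and without mutant library 2.

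Several abundant 18S guides did not pass. Me18S-A1576 (Uhg2) had 452, 605, 345 and 399 CPM, with both mutant libraries below the wildtype (-0.51, SE 0.20, edgeR adjusted p = 0.079). Me18S-C1831, from an intron of RpL27A, had 282, 258, 176 and 219 CPM (-0.45, SE 0.17, edgeR adjusted p = 0.0716). Me18S-C1968, from an intron of Swim, had 90.3, 112, 86.1 and 125 CPM, and the groups overlapped throughout.

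**Figure D3:**
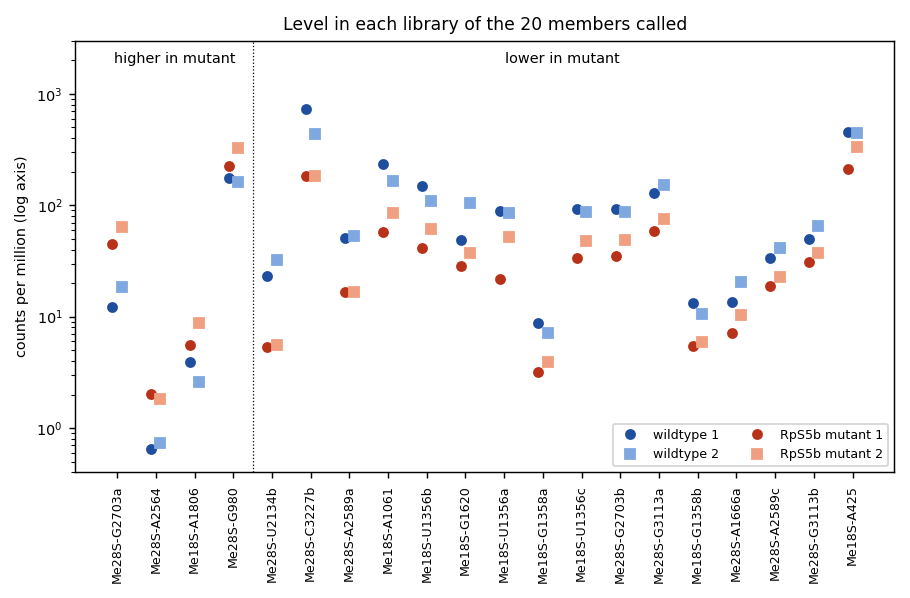
CPM on a log axis in each of the 4 libraries for the 4 snoRNAs called higher (left of the dotted line) and the 16 called lower, ordered by size of change. In all 20 the mutant points lie on 1 side of both wildtype points, and mutant library 2 lies above mutant library 1 in most.

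For 28S, the member with the largest decrease was Me28S-U2134b, in an intron of RpL13A (chromosome 3R, 5625178 to 5625254, plus strand). It had 72, 174, 69 and 49 counts, or 23.3, 32.1, 5.37 and 5.63 CPM, so the wildtype level was 5.15 times the mutant level in the fit (log2 fold change -2.36, SE 0.19, edgeR adjusted p = 0.000163). Both mutant libraries lay far below the wildtype and close to each other. Me28S-A2589a, from an intron of the chromatin remodeller gene dom, had 51.2, 53.5, 16.7 and 16.5 CPM (-1.66, SE 0.13, edgeR adjusted p = 0.000145), with the libraries of each group close together. Its neighbour Me28S-A2589c had 33.7, 41.0, 18.9 and 22.6 CPM (-0.86, SE 0.16, edgeR adjusted p = 0.00444).

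Me28S-C3227b had 726, 435, 182 and 183 CPM, with the wildtype libraries further apart than the mutant ones (-1.67, SE 0.25, edgeR adjusted p = 0.00203). Me28S-G2703b had 92.0, 87.7, 34.9 and 49.2 CPM (-1.10, SE 0.18, edgeR adjusted p = 0.00292), and Me28S-A1666a (Uhg1) had 13.6, 20.3, 7.16 and 10.5 CPM (-1.01, SE 0.26, edgeR adjusted p = 0.0171). In each the mutant lay below the wildtype, and Me28S-A1666a no longer passed without wildtype library 2 (edgeR adjusted p = 0.171). The copies Me28S-G3113a and Me28S-G3113b, in introns of the non-coding gene lncRNA:CR45184 on 3L, had 129, 151, 58.5 and 75.7 CPM and 50.2, 65.2, 30.8 and 37.7 CPM (-1.06 and -0.76, edgeR adjusted p = 0.00288 and 0.011), again without overlap. That gene lies within the coding gene Sf3b3 on the same strand, so both copies lie within Sf3b3 as well. Me28S-G3113b no longer passed without wildtype library 2 (edgeR adjusted p = 0.0642).

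Me28S-G2703a, from Uhg5, changed the other way. It had 38, 100, 572 and 559 counts, or 12.3, 18.5, 44.5 and 64.2 CPM, a log2 change of 1.78 (SE 0.24, edgeR adjusted p = 0.00134), or 3.43 times the wildtype. Me28S-A2564, the shortest member at 46 nt, had 2, 4, 26 and 16 counts. Its log2 fold change was 1.44 (SE 0.46, edgeR adjusted p = 0.0389), it rested on 6 wildtype reads in all, and it lost the call when any single library was left out.

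Me28S-G980, in an intron of sta (chromosome X, 1482559 to 1482629, minus strand), had 177, 161, 224 and 328 CPM, with both mutant libraries above the wildtype (0.71, SE 0.21, edgeR adjusted p = 0.0303). It overlaps snoRNA:M by 32 nt, and that gene had nearly the same counts in every library, 542, 870, 2873 and 2850 against 545, 874, 2879 and 2852, so the 2 cannot be separated. The call was lost without wildtype library 1, without wildtype library 2 and without mutant library 2. Me28S-A992, the most abundant member, had 1329, 969, 625 and 1134 CPM, with mutant library 2 inside the wildtype range, and did not pass (-0.39, SE 0.31, edgeR adjusted p = 0.357).

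By host, the members fell into 36 in non-coding hosts, 17 in ribosomal protein genes, 19 in other coding genes and 1 without a host, over 33 host genes. The 36 include 5 in lncRNA:CR45184, which lies within the coding gene Sf3b3 and counts as their host by its smaller span. The non-coding hosts, most of them named Uhg, are genes whose spliced RNA is thought to serve mainly as a carrier of intronic snoRNAs. Of their members, 10 passed as lower and 1 as higher of 31 tested (32.3% lower, against 20.9% of all genes), with a median log2 fold change of -0.66. In ribosomal protein hosts 2 passed as lower and 2 as higher of 14 tested (14.3% each), with a median of -0.09. In other coding hosts 4 passed as lower (28.6%) and none as higher of 14 tested, with a median of -0.27. Without mutant library 2 the 3 medians were -1.01, -0.62 and -0.39, in the same order of host types, against 0.02 over all genes. With the replicate number as a block, 54.8%, 42.9% and 35.7% passed as lower, against 24.4% of all genes. These groups are small, and the difference between them was not tested.

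Members of Uhg5 passed in both directions. This host on 2R carried 10 members, all tested, of which 3 passed as lower and 1 as higher. Besides those named, Me18S-C1366 had 77.1, 137, 50.3 and 95.3 CPM, Me28S-U1848 had 7.45, 10.7, 9.34 and 7.81, and Me18S-G1952 had 0.971, 4.98, 0.856 and 1.49, with overlapping groups in all 3. Uhg8 carried 3 members and all passed as lower. Uhg1 carried 5 members, of which only Me28S-A1666a passed. Me28S-G3081a and Me28S-A3407a had mutant values below the wildtype without passing, at -1.21 and -0.90 (edgeR adjusted p = 0.0901 and 0.0917). Me18S-A28a had 147, 120, 94.8 and 116 CPM and Me28S-G3277a had 99.1, 94.3, 65.6 and 147, the latter with mutant library 1 below and mutant library 2 above both wildtype libraries.

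Uhg3, Uhg4 and Uhg7 gave no member that passed. In Uhg3, Me28S-C2645b and Me28S-C2645c had identical counts of 118, 319, 827 and 845 and were both above the wildtype without passing (0.71, SE 0.26, edgeR adjusted p = 0.0574), so they were 1 measurement. Me28S-C2645a had 7.77, 13.3, 9.96 and 12.2 CPM, a log2 fold change of -0.00. In Uhg4, Me28S-G3255a had 71.2, 98.7, 54.9 and 70.3 CPM with the mutant below the wildtype (-0.45, edgeR adjusted p = 0.106). Me28S-A982a and Me28S-A982b had log2 fold changes of -0.65 and -1.19 with overlapping groups, and neither passed. In Uhg7, Me28S-A2634a had 7.12, 7.01, 9.26 and 10.2 CPM and Me28S-A2634b had 0.971, 5.91, 4.75 and 4.94, and neither passed.

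The ribosomal protein hosts themselves went up in the footprint counts, which for a coding gene reflect ribosomes on its mRNA. Of 12 such hosts, 11 passed as higher (91.7%, against 20.5% of all genes; 10 or 11 with 1 library left out), with a median log2 fold change of 1.31, and the exception was sta (0.29, edgeR adjusted p = 0.419). Of all 31 hosts tested, 17 passed as higher and 2 as lower, Stt3A (99.5 to 49.5 CPM on average) and Dys (59.9 to 44.1), and Dys no longer passed when any single library was left out. The non-coding hosts had few reads, at 2 to 42 counts per library for Uhg1, Uhg2, Uhg3, Uhg4, Uhg5 and Uhg8, and of 7 tested only Uhg8 passed, with 5, 7, 37 and 41 counts (1.37, SE 0.45, edgeR adjusted p = 0.043). That call was lost in 6 of 13 alternative settings, among them without wildtype library 1 (edgeR adjusted p = 0.107), without wildtype library 2 (0.245) and without mutant library 2 (0.137). The host lncRNA:CR45184 had 146, 261, 601 and 426 counts and a log2 change of 0.00 (SE 0.13, edgeR adjusted p = 0.992), while 2 of its 3 tested members passed as lower. It lies within Sf3b3 on the same strand, with 19.05 CPM per kilobase on average against 19.24 for Sf3b3. Its counts may therefore include reads of Sf3b3.

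Set beside its own host, a member had the lower log2 fold change in 52 of 57 pairs with both tested. These pairs came from 25 hosts and are not independent. The median log2 fold change was -0.57 for these members and 0.71 for their hosts. The count by itself therefore shows nothing particular to a member and its own host. The member was the lower in 13 of 14 pairs for ribosomal protein hosts, with a median difference of -1.51. For other coding hosts this was 14 of 14 pairs (-0.73), and for non-coding hosts 25 of 29 (-1.18). For ribosomal protein hosts, the median log2 ratio of member to host counts was -1.57 and -0.42 in wildtype and -2.71 and -1.93 in mutant libraries. In the same library order it was -3.37, -2.87, -4.56 and -4.145 for other coding hosts. For non-coding hosts it was 5.20, 4.93, 3.84 and 3.68. The groups did not overlap in any host type, and the exact permutation p of 0.33 in each is the smallest that this design allows. For ribosomal protein hosts, the ratio of member to host did not overlap between the groups in 9 of the 14 pairs (64.3%), with the mutant below in all 9. For other coding hosts the mutant lay below without overlap in 8 of 14 pairs. For non-coding hosts it lay below in 21 of 29 pairs and above in 3. For comparison, the CPM of single genes did not overlap with the mutant below in 34.3% of all genes, a share for levels and not for ratios. Across the 57 pairs the 2 log2 fold changes had a Pearson r of 0.07 and a Spearman rho of 0.06, a description only, since members share hosts and libraries. A snoRNA count and a coding host's footprint count measure different things, the amount of a small RNA's pieces and the ribosomes on an mRNA. In 29 of the 57 pairs the host was non-coding, and its counts cannot be read as ribosomes on an mRNA.

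**Figure D4:**
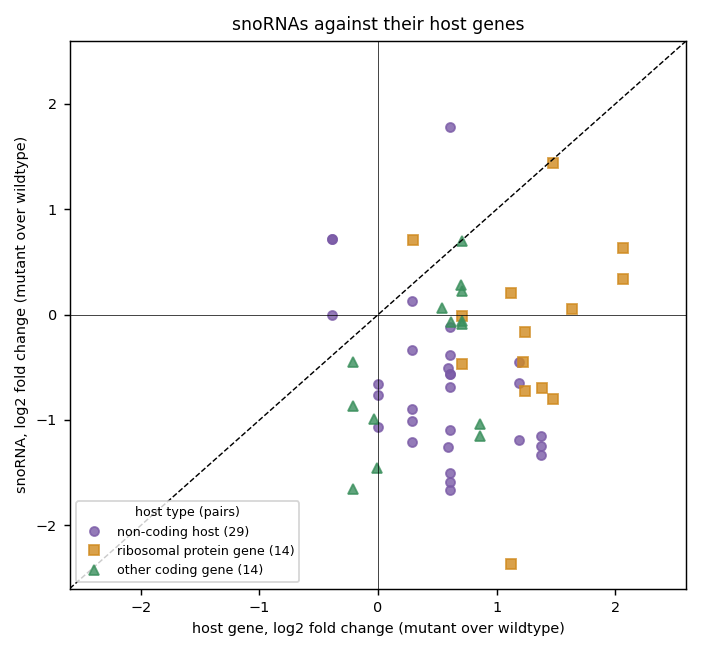
Log2 fold change of each snoRNA (vertical) against that of its host gene (horizontal) for 57 pairs, with the dashed line where both are equal and the symbols giving the type of host. The points lie below the line in 52 pairs, and the ribosomal protein hosts lie to the right at a median of 1.31.

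RpL13A shows the spread within 1 ribosomal protein host. Its footprints rose from 200.4 ± 8.78 to 436 ± 73.2 CPM (SD, n = 2 each, log2 fold change 1.12, SE 0.18, edgeR adjusted p = 0.00264), its intron product Me28S-U2134b fell by 2.36 on the log2 scale, and Me28S-U2134a, which lies further along and overlaps an exon of some RpL13A transcripts, had 84.8, 138, 100.1 and 159 CPM and did not pass (0.21, SE 0.28). In RpS12, Me28S-A774b had 28.8, 113, 30.3 and 114 CPM and Me28S-A774a had 19.8, 45.2, 18.8 and 30.3. The values of Me28S-A774b split by library number and not by genotype. Me28S-G2173, from RpS16, had 126, 69.4, 96.6 and 106 CPM and a log2 fold change of 0.06. Me28S-C3351, from RpL28, had 25.6, 27.3, 9.80 and 21.5 CPM, with the mutant below the wildtype (-0.80, SE 0.33, edgeR adjusted p = 0.0872). Me28S-G3253, from RpS9, had 24.6, 42.3, 16.7 and 26.0 CPM, and Me18S-C1096, from RpL3, had 149.9, 126, 88.1 and 157, and in both the groups overlapped and neither passed.

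Among other coding hosts, Nop60B encodes the pseudouridine synthase of the H/ACA box snoRNAs, the other large class of modification guides, and hosts 4 C/D members, Me28S-G1083a to Me28S-G1083d. None passed, with log2 fold changes from -0.09 to 0.70, while Nop60B itself passed as higher (0.71, SE 0.15, edgeR adjusted p = 0.00852). All 4 members overlap an exon of some Nop60B transcripts, so reads of those would be counted in them too. The members had few reads, at 3 to 57 counts per library. The call of Nop60B was lost without wildtype library 2 (edgeR adjusted p = 0.0542) and with counts scaled to all snoRNAs. In dom the host did not pass (-0.21, SE 0.13, edgeR adjusted p = 0.229), and 2 of its 3 members passed as lower. In CG43675 the host passed as higher (0.86, SE 0.14, edgeR adjusted p = 0.00259) and both tested members as lower. A further gene on the same strand also contains both members, and CG43675 counts as their host by its smaller span. In Sf3b3, Me28S-A771 had 45.3, 138, 15.3 and 53.5 CPM, with mutant library 2 inside the wildtype range. The groups overlapped, and it did not pass (-1.45, SE 0.62, edgeR adjusted p = 0.099). Me28S-A1322, from eEF1alpha1, had 114, 155, 121 and 135 CPM, with both mutant libraries inside the wildtype range (-0.07, SE 0.18, edgeR adjusted p = 0.776). Me28S-G764, from Arf1, had 5, 43, 22 and 35 counts, also inside it.

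Copies with the same target position offered a comparison inside each library, in which scaling cancels. In 13 families 2 or more copies were tested. With the identical Me28S-C2645b and Me28S-C2645c taken once, these were 31 members in 24 pairs, and the ratio of the copies did not overlap between the groups in 12 pairs (50%). The CPM of single genes did not overlap in 37.6% of all genes with the mutant above and in 34.3% with it below, so the count of pairs by itself shows nothing particular to the copies. In 4 pairs the log2 fold changes differed by more than 1. The ratio of Me28S-U2134a to Me28S-U2134b was 3.62 and 4.27 in wildtype libraries, and 18.5 and 27.9 in mutant ones. The ratio of Me28S-G2703a to Me28S-G2703b was 0.135 and 0.211 in wildtype and 1.27 and 1.31 in mutant libraries, so copy a went from the scarcer to the more abundant of the pair. Against Me28S-G2703c, which had 261, 166, 137 and 151 CPM, the ratio of copy a went from 0.0477 and 0.112 to 0.325 and 0.426.

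The ratio of Me28S-A2589a to Me28S-A2589b, which had 11.7, 11.3, 8.95 and 7.69 CPM, was 4.34 and 4.72 in wildtype and 1.86 and 2.14 in mutant libraries. The ratio of Me28S-C3227a to Me28S-C3227b went from 0.131 and 0.14 to 0.224 and 0.303. In all of these the groups did not overlap, and each had the smallest exact permutation p of 0.33. Other families moved more alike, with a range of log2 fold change of 0.12 in Me18S-G1358 and 0.18 in Me18S-U1356. The sources used here do not say how reads that match more than 1 copy were placed, so values of near-identical copies are uncertain.

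**Figure D5:**
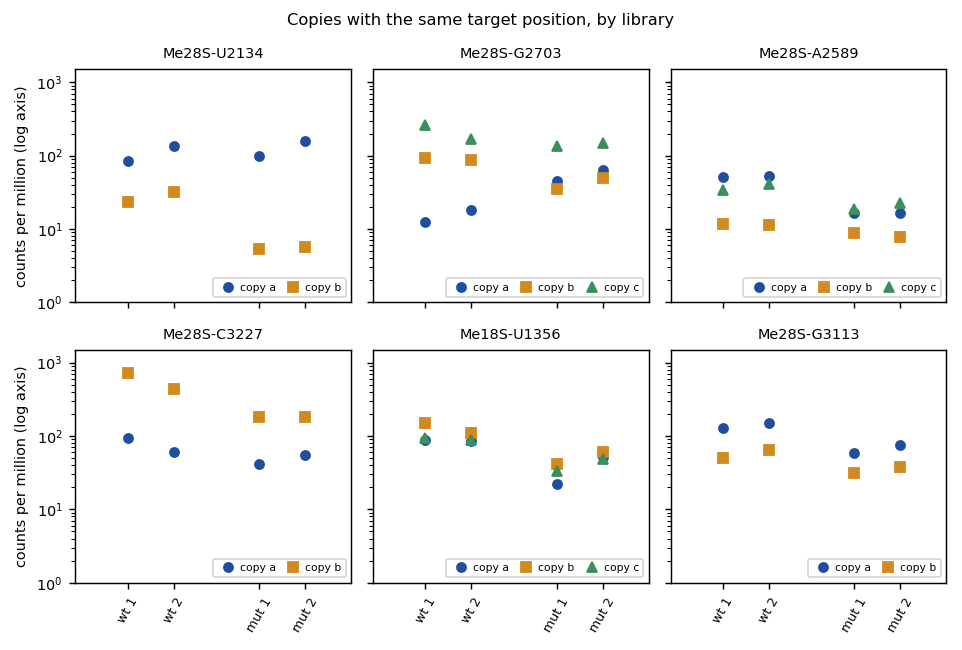
CPM on a log axis for the copies of 6 families in each library (wt, wildtype; mut, RpS5b mutant). In Me28S-U2134 copy b fell in the mutant while copy a did not pass, in Me28S-G2703 copy a rose past copy b, and in Me18S-U1356 the 3 copies lie lower together.

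The proteins that bind C/D snoRNAs had more footprints in the mutant. Fib (fibrillarin), Nop56, nop5 (the fly Nop58) and hoip (the 15.5K protein) all passed as higher, 4 of 4, with a median log2 fold change of 0.98. Fib went from 120 to 235 CPM (0.97, SE 0.15, edgeR adjusted p = 0.00218). The core proteins of H/ACA particles, Nop60B, NHP2, Gar1 and Nop10, passed as higher too, 4 of 4, with a median of 0.73. Gar1 was the highest of these (1.32, SE 0.15), and NHP2 and Nop60B lost the call in some settings. The rise was thus not particular to the C/D proteins. Of 7 genes for assembly of the particles, 1 passed as higher, Nopp140 (1.08, SE 0.16), and 2 as lower, spag (-1.03, SE 0.14) and Nop17l (-0.75, SE 0.15), both partners of the chaperone Hsp90 in that assembly. Over all genes 20.5% passed as higher. Of 13 genes for intron release and end trimming, 6 passed as higher (46.2%) and none as lower (median 0.69), among them Rrp46 (1.18, SE 0.17), an exosome subunit, and Mtr4 (0.82, SE 0.13), its helicase. Of 17 genes for pre-rRNA processing and RNA polymerase I, 12 passed as higher (70.6%) and none as lower (median 0.76). The median of all genes tested was 0.03.

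The other snoRNA classes are set beside the members without a test of the difference. Of 101 H/ACA box snoRNAs tested, 6 passed as higher and 23 as lower (22.8%, against 20.9% of all genes), with a median log2 fold change of -0.33. Mutant library 2 lay above library 1 in 94 of the 101. Of 28 other C/D box snoRNAs, 11 passed as lower (39.3%) and none as higher, with a median of -0.76. Without mutant library 2 the medians of these classes were -0.57 and -1.04, against 0.02 over all genes. With the replicate number as a block, 37.6% and 53.6% of them passed as lower, against 24.4% of all genes. The U3 genes, which act in cleavage of pre-rRNA and do not guide methylation, held most of the counts of that class and lay at 0.12 for snoRNA:U3:54Aa and -0.02 for snoRNA:U3:9B without passing (SE 0.35 and 0.34). A further gene, snoRNA:U3:54Ab, had the same counts as snoRNA:U3:54Aa in every library, so these 2 were 1 measurement. Both were counted in that class and in the summed snoRNA counts used for scaling. Among Uhg1 members of that class, snoRNA:U27:54Eb had 898, 1229, 780 and 480 counts, a log2 change of -2.16 (SE 0.18, edgeR adjusted p = 0.000182), a gene chosen here after its values were seen.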

How the data were processed

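The authors deposited 1 table per library with counts, RPKM, a signal column (coverage per nucleotide) and a length for 34729 transcripts, and only the counts were used. Per the file headers, reads from 25 to 100 nt long were counted where the point 12 nt in from the 5′ end fell inside the transcript, with no region masked. The deposited RPKM is the count per kilobase scaled to library reads, and the deposited signal is the count divided by length, per the file headers. Per the submitters' processing notes, the build was BDGP6 and the tools were DESeq2, bedtools 2.26.0, SAMtools 0.1.19, TopHat2 2.1.2 and Bowtie 1.0.0.

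Transcripts were tied to genes of the RefSeq Release 6 table by coordinates (shared ends, junctions or 80% overlap both ways), which named 34579 transcripts (99.57%). The 150 others, 0.137% to 0.232% of reads, stayed out of library sizes and tests. The transcript with the highest mean count stood for a gene, avoiding transcripts whose exons hold a snoRNA. A host is the smallest gene that contains the member on its strand.

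Genotype was the only term in edgeR 4.0.16 (R 4.3.3; filterByExpr, TMM, quasi-likelihood test), with Benjamini-Hochberg adjustment over 7789 genes. The test was tested on simulated data. Standard errors are the log2 fold change over the root of F, and ratios of counts had 0.5 added. Separate animals are named in no label, so p-values measure the spread between these libraries. Reads carry no molecular identifiers, so the limit for a count of 0 covers counting error only. DESeq2 1.42.0 and the other alternatives are in the closing section. The members and lists were chosen with earlier results of these data known. The naming rule took the most abundant members. Of members with a mean of at least 10 CPM, it took passing ones with the smallest p in each direction. At the same level it took members that did not pass with the largest p, whatever their direction. It also took members of hosts with 3 or more tested members, and tested copies of 1 target. Beside it, Me18S-G1620, Me18S-A1806, Me28S-A2564, Me5.8S-G74, the U6 guides, single members of Sf3b3, eEF1alpha1, Arf1, RpL28, RpS9 and RpL3, hosts with fewer members, members at 0 and those without transcripts were named after their values were seen. Some host genes are not reported here.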

Additional observations from a re-analysis of the deposited data

How the results depend on the processing

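Over 16 alternative settings the median log2 fold change of the members stayed below 0, and that of their hosts above 0 in each setting that could change it. The members called went from 4 higher and 16 lower to 7 higher with scaling by total counts, to 1 and 8 with scaling by summed snoRNA counts, to 31 lower with no filter on low counts, to 2 higher with at least 10 CPM in 2 libraries, and to 1 higher with DESeq2. With the replicate number as a block, 7 were higher and 28 lower (46.7% lower, against 24.4% of all genes). The labels do not say that equal numbers pair the libraries, and deviations of same-numbered libraries correlated at 0.246 over 7789 genes. Leaving out 1 library at a time gave 1 to 6 higher and 13 to 33 lower members, with medians from -0.85 to -0.27. Calls over all genes, 1597 higher and 1626 lower, became 598 and 525 with scaling by summed snoRNA counts and 795 and 1038 with DESeq2, and 1031 to 1414 higher when 1 library was left out. The hosts' median of 0.71 became 0.89 with snoRNA scaling and 0.60 to 0.84 with 1 library left out. The share of counts held by the members differed by -0.249 to -0.0423 percentage points when 1 library was left out, and by -0.123 without Me28S-A992, chosen after seeing the data. Scaling by snoRNA counts moved the median of all genes to 0.193, and no filter moved it to 0.106. The cause of these moves was not tested.

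Of the 40 members that did not pass, 18 changed sign in some setting. Leaving out 1 library gave a range from -0.63 to 0.17 for snoRNA:Me18S-C1096, -0.23 to 0.28 for snoRNA:Me18S-C1968, -2.14 to 0.20 for snoRNA:Me18S-G1952, -0.28 to 0.16 for snoRNA:Me28S-A1322, -0.29 to 2.28 for snoRNA:Me28S-A2634b, -0.90 to 0.29 for snoRNA:Me28S-A774a, -1.26 to 1.3 for snoRNA:Me28S-A774b, -1.86 to 2.21 for snoRNA:Me28S-A982b, -0.28 to 0.48 for snoRNA:Me28S-C2645a, -0.42 to 0.21 for snoRNA:Me28S-G1083a, -0.24 to 0.57 for snoRNA:Me28S-G1083b and -0.36 to 0.22 for snoRNA:Me28S-G1083c. It gave -0.33 to 0.54 for snoRNA:Me28S-G2173, -0.55 to 0.58 for snoRNA:Me28S-G3277a, -1.62 to 0.73 for snoRNA:Me28S-G764, -0.31 to 0.20 for snoRNA:Me28S-U1848, -0.15 to 0.59 for snoRNA:Me28S-U2134a, -0.24 to 2.06 for snoRNA:MeU6-C68 and -0.0218 to 0.0113 for lncRNA:CR45184. With scaling by total counts, snoRNA:Me28S-A774b was at 0.14, snoRNA:Me28S-C2645a at 0.0903 and snoRNA:Me28S-G1083c at 0.0192. With scaling by summed snoRNA counts, snoRNA:Me28S-A1322 was at 0.0636, snoRNA:Me28S-C2645a at 0.15, snoRNA:Me28S-G1083a at 0.0459, snoRNA:Me28S-G1083c at 0.078 and snoRNA:Me28S-U1848 at 0.065. Thinned to the smallest library total, snoRNA:Me28S-A774b was at 0.13, snoRNA:Me28S-C2645a at 0.29 and snoRNA:Me28S-G1083a at 0.0325. With the replicate block, snoRNA:Me28S-A774b was at 0.0371 and snoRNA:Me28S-C2645a at 0.0551, and DESeq2 gave 0.0196 for the latter. For lncRNA:CR45184 the values were -0.0302 with DESeq2-type size factors, -0.0142 with scaling by protein-coding genes only, -0.00449 with at least 10 CPM in 2 libraries, -0.074 with the highest-count transcript and -0.0194 with DESeq2, and Uhg3 was at 0.69 with the highest-count transcript, chosen after seeing the data, as was counting the identical members once. Depth limits members with few reads: wildtype library 1 was the shallowest, at 3122299 reads.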
